A study of Mus musculus with 188 samples.

Results

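Mouse chromosome 18 was followed through S-phase in single embryonic stem cells of a haploid and a diploid line. Its members are all bins of 50 kb on the chromosome that carried a replication state, 1754 of the 49588 bins with a state on the autosomes and the X chromosome, and the other 18 autosomes held 44989 bins. The chromosome was selected on the binarized states themselves, chosen by how widely they differed between the lines, so the line differences below describe it and none was tested. Single nuclei of mouse embryonic stem cells (mESCs) had been stained with DAPI, sorted by DNA content, amplified and sequenced. DNA that has replicated has a higher copy number than DNA that has not, and this contrast gave each bin of each cell a smoothed copy number score and a state of 0 (unreplicated) or 1 (replicated).

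The haploid cells were H129-2, a line of the 129 strain with 1 chromosome set, sorted over a wide part of S-phase. The diploid cells were F121-9, a hybrid line with 1 chromosome set of 129 and 1 of Castaneus, sorted mostly from the middle of S-phase. Both lines grew without feeder cells in N2B27 medium with 2i and LIF, and no cell had a further treatment. Deposited profiles could be assigned to 75 haploid and 63 diploid cells in S-phase. The labels place the cells of a line on 1 plate and name no culture, so each line counts as 1 sample, each SD given is a spread over cells, and line, genotype, ploidy and plate cannot be told apart. No pair of diploid cells had the same profile, and the most alike pair differed at 7.62% of autosomal bins. The number of reads behind each cell is unknown from these values.

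Replication timing is the order in which stretches of a chromosome are copied during S-phase. Neighbouring origins fire together, so that a chromosome is divided into large replication domains, separated by transitions. Early domains are as a rule rich in genes and in open chromatin, and late domains are poor in genes and often lie at the nuclear periphery. Many domains change their timing when stem cells differentiate.

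Chromosome 18 alternated between 22 early and 22 late domains. Each bin was given a scheduled time, its percentile rank among all autosomal bins in the mean smoothed score with the lines weighted equally, read as hours of a 10 h S-phase, and bins before 5 h were called early. Runs of fewer than 5 bins were merged into their neighbours. The early domains covered 41.25 Mb, or 47.4% of the bins in domains, and held the starts of 415 protein-coding genes, 10.1 per Mb. The late domains covered 46.2 Mb with 98 gene starts, 2.12 per Mb. Gene starts were therefore much denser on the early side, and the mean GC content was 43.7% in early and 39.5% in late domains. Early domains were 0.35 to 8.05 Mb long with a median of 1.275 Mb, and late domains 0.3 to 5.6 Mb with a median of 1.9 Mb.

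The 3 earliest domains held 7.84, 23.1 and 9.44 gene starts per Mb, in order of schedule. The early domains together held 10.1 and the chromosome 5.85 per Mb, so not all of the 3 were dense for early domains. The earliest, chr18:73500001-78350000 in mm10, was scheduled at 1.45 h and held 38 gene starts. It was followed by chr18:33550001-39600000 at 1.70 h, with 140 gene starts, and chr18:60400001-68450000 at 2.36 h, with 76. The latter pair and the late domain chr18:25650001-31250000, scheduled at 7.71 h with 2 gene starts in 5.6 Mb, were the longest of the chromosome. The latest domain was chr18:85200001-90600000 at 8.51 h, next to the telomeric end. The late domains chr18:15000001-20200000, at 8.13 h, and chr18:47350001-49450000, at 7.95 h, came before it. The first of these contains Cdh2, which encodes N-cadherin.

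Every one of the 138 cells had replicated a larger share of the early than of the late domains. The domains were drawn from the mean score of these same cells, and the states were made from that score, so this order was largely built in. In haploid cells in the middle of S-phase, with 40% to 60% of the other autosomes replicated, 82.1% ± 7.16 of the bins in early domains and 17.6% ± 6.65 of those in late domains were replicated (SD, n = 25). The diploid cells of the same window had replicated 89.3% ± 7.30 and 20.2% ± 7.71 (SD, n = 45). In haploid cells above 60%, the late domains reached 52.1% ± 18.7 (SD, n = 39), and in diploid cells of that class 33.9% ± 10.5 (SD, n = 14), but the former had replicated a mean of 74.1% and the latter 63.3% of the other autosomes. The latest domain was then replicated, by more than 50% of its bins, in 6 of these 39 haploid cells and in none of the 14 diploid cells above 60%, a count of 0 that allows a share of up to 23.2% by the exact binomial interval.

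**Figure D1:**
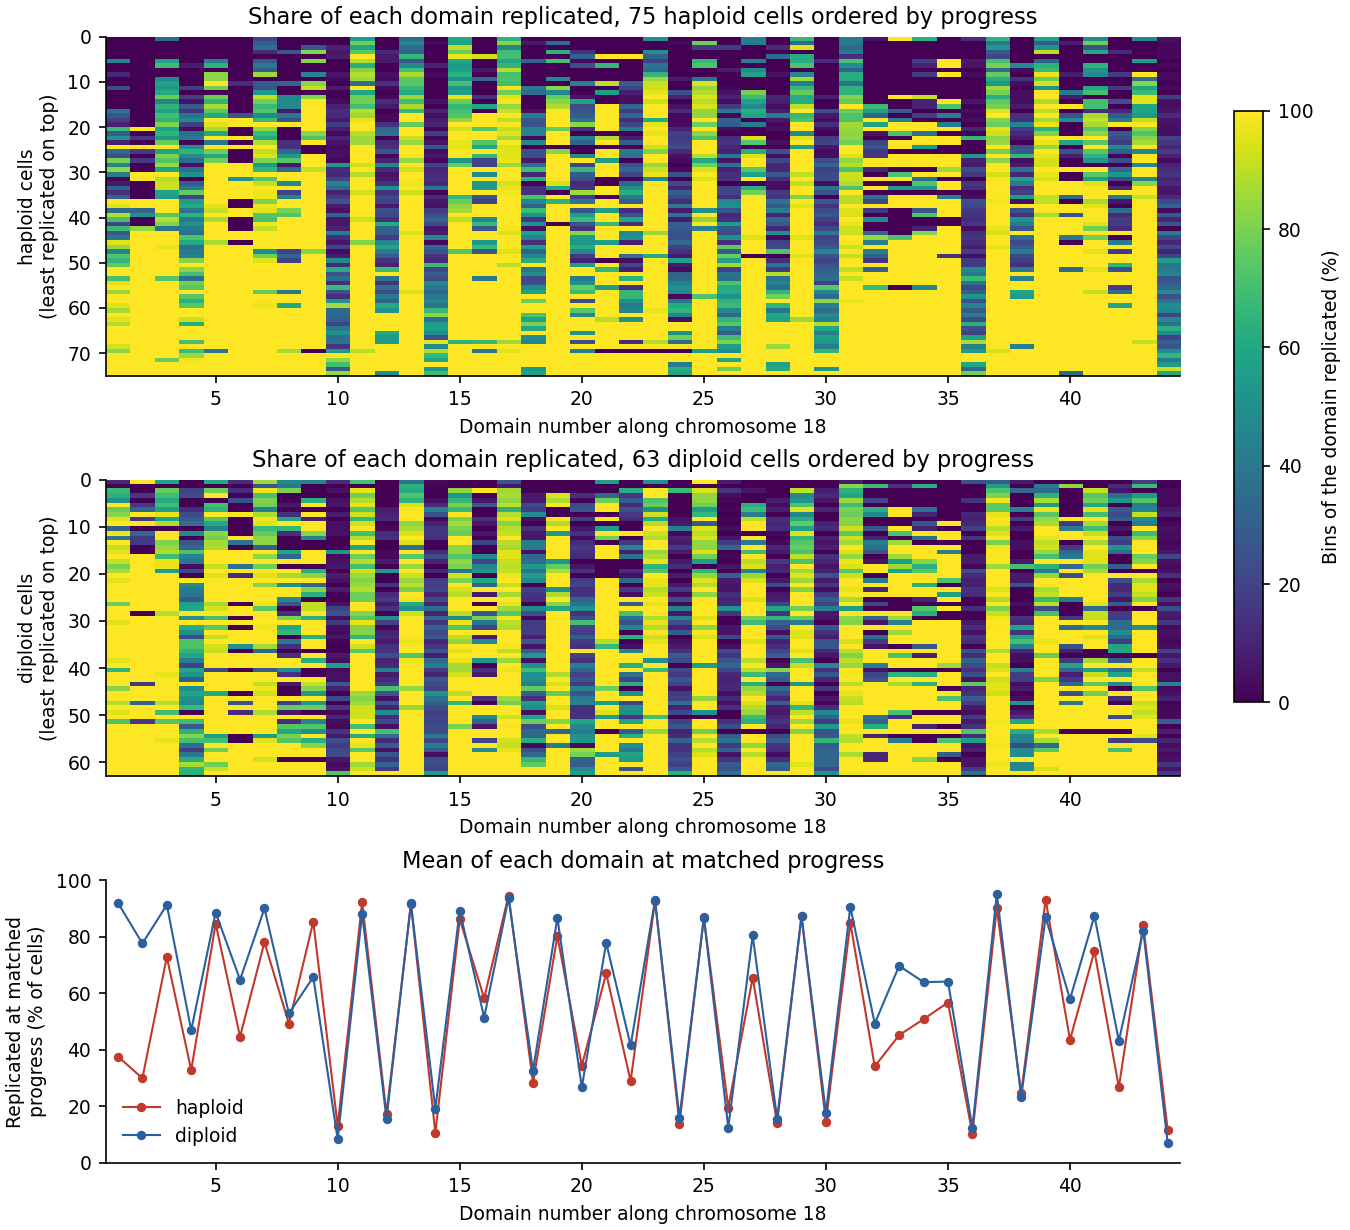
Share of the bins of each of the 44 domains of chromosome 18 that were replicated, for haploid cells (top) and diploid cells (middle), 1 row per cell with the least replicated cell on top, and the mean of each domain in percent of cells at matched progress (bottom). Domains are early or late by the schedule of both lines together, and a domain can fall on the other side of 5 h in 1 line. Domain 1, called early, stands at 5.76 h in the haploid schedule, and domain 2, called late, at 4.31 h in the diploid schedule. The lines lie furthest apart at these 2 domains. A bin was replicated there on average in 37.6% of haploid against 91.995% of diploid cells and in 29.9% against 77.6%.

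The first question was whether the chromosome kept pace with the rest of the genome in each cell. Progress of a cell is the percentage of the bins of the other autosomes that were replicated, where a diploid cell counts as the mean of its homologs. The haploid cells had replicated 57.6% ± 20.3 of chromosome 18 and 61.04% ± 16.8 of the other autosomes (SD, n = 75). The offset, chromosome 18 minus the rest, was −3.47 ± 5.06 percentage points, from −17.7 to 11.2 around a median of −3.83. Chromosome 18 was behind in 56 haploid cells and ahead in 19. The diploid cells had replicated 53.4% ± 10.5 of chromosome 18 and 53.9% ± 9.48 of the rest, an offset of −0.461 ± 2.34 points (SD, n = 63) from −5.55 to 5.11 around a median of −0.276. It was behind in 36 diploid cells and ahead in 27, so neither mean lay further from 0 than the spread over cells.

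The lag of the haploid cells behind the other autosomes was largest early in S-phase. Chromosome 18 was behind in all 11 haploid cells below 40% progress, by −8.70 ± 4.83 points (SD) with a range of −17.7 to −1.82. It was behind in 24 of the 25 haploid cells at 40% to 60%, by −5.30 ± 2.85 points. Above 60% it was behind in 21 and ahead in 18 of 39 cells, with an offset of −0.814 ± 4.61 points. In diploid cells the offset was −2.67 ± 2.16 points below 40% (SD, n = 4), −0.272 ± 2.36 at 40% to 60% (n = 45) and −0.439 ± 2.12 above 60% (n = 14). At 40% to 60% the haploid mean was thus below 0 by more than the spread over cells and the diploid mean was not.

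Across cells, the offset rose with progress with a Pearson correlation of 0.635 over 75 haploid and 0.319 over 63 diploid cells, values whose points share the progress measure on both axes. The 2 haploid cells furthest from the median lay at opposite ends. Haploid cell 9 had replicated 18.9% of chromosome 18 and 36.6% of the rest, and haploid cell 14 had replicated 95.3% and 84.2%. Most haploid cells below 40% came from plate row A, whose 11 cells had a mean progress of 34.3% and a mean offset of −9.11 points, so plate row and progress cannot be told apart for them.

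**Figure D2:**
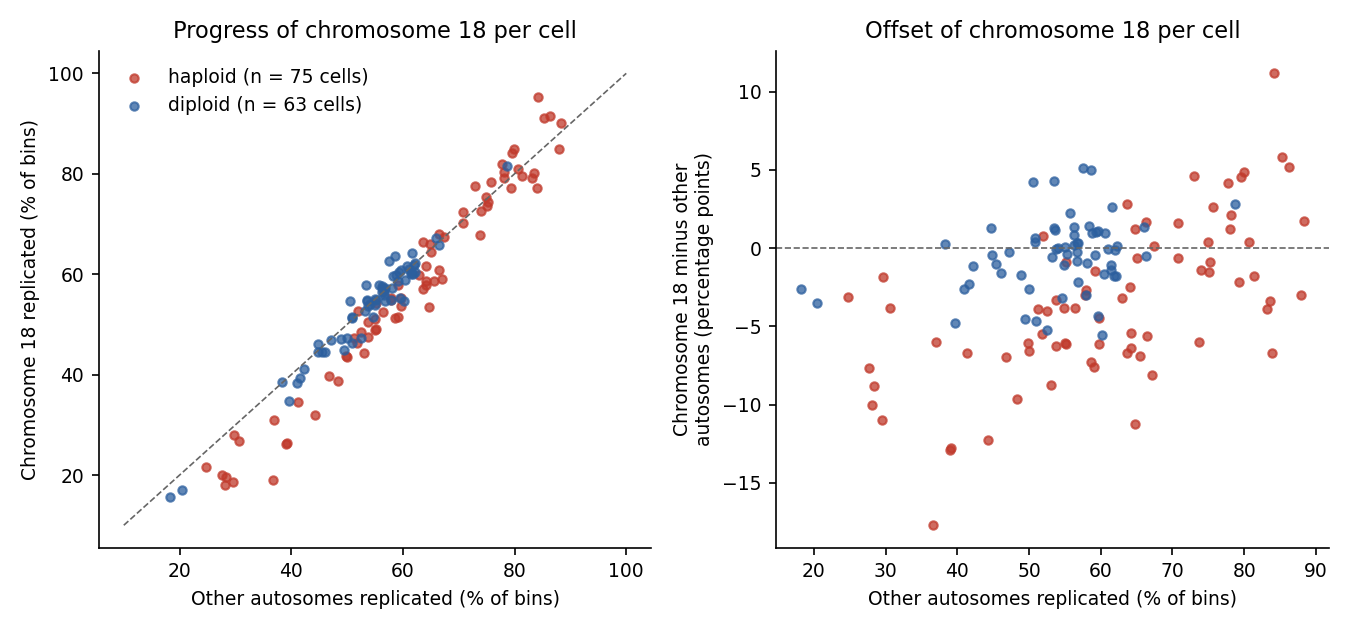
Left, percentage of chromosome 18 bins replicated against the percentage of bins replicated on the other autosomes, 1 point per cell, with a dashed line of equal progress. Right, the difference in percentage points on the same x axis; all 11 haploid cells below 40% lie under 0, while the diploid cells lie between −5.55 and 5.11.

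The schedule gives, for comparison, the share of chromosome 18 that a cell of given progress would have replicated in strict order. Against that share the haploid cells lay −2.62 ± 4.23 points (SD, n = 75) and the diploid cells 0.886 ± 2.68 points (SD, n = 63) away, so the diploid sign turned. In strict order the haploid cells below 40% would have stood at a mean of 28.1%, beside 31.9% of the other autosomes. Against the schedule the haploid cells lay −4.95 ± 4.38 points away below 40%, −3.86 ± 2.56 at 40% to 60% and −1.16 ± 4.57 above 60%. These values lie closer together than the offsets of the same classes. The diploid values were 0.505 ± 3.52, 1.37 ± 2.61 and −0.548 ± 2.33 points. The mean scheduled time of the chromosome was 5.31 h in the haploid and 4.94 h in the diploid schedule. Among the 19 autosomes the haploid offset of chromosome 18 ranked 13th from the top and the diploid one 12th. Offsets of the other autosomes reached from −13.4 points on chromosome 3 to 16.5 on chromosome 11 in haploid cells, and from −6.38 to 9.27 on the same chromosomes in diploid cells. The SD over haploid cells was the 3rd largest of the 19.

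The deposited scores of the lines differed in how far whole chromosomes stood apart. The mean score of the other autosomes ran from −0.298 to 0.163 in haploid cells and only from −0.122 to −0.0774 in diploid cells. Chromosome 18 had a mean score of −0.140 in haploid and −0.0986 in diploid cells. Whether this difference in chromosome levels comes from the cells or from the scaling of the deposited profiles cannot be told apart. The spread of the line difference, the counts of bins past the size limit and the named regions are therefore also given with cells matched on the progress of chromosome 18 itself, which takes its level out. The values of domains, borders, genes and pairs of cells are matched on the other autosomes only.

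The second question was where haploid and diploid cells of like progress differed. Cells were sorted into strata of 5 percentage points of progress, and in the 7 strata with at least 2 cells of each line, 43 haploid and 60 diploid cells, the share of cells with a bin replicated was compared and averaged over strata. The lines mostly ran together. At 69.6% of the chromosome 18 bins, against 71.3% of the bins of the other autosomes, the shares lay within 10 percentage points of each other. The haploid and diploid schedules had a Pearson correlation of 0.947 over 1709 bins, which are neighbours on 1 chromosome and not independent, and the median distance between them was 0.506 h.

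Borders were mostly kept. Of the 43 borders between domains, 34 had a place within 500 kb at which both lines crossed 50% of cells at matched progress. At 9 of these the crossing fell into the same bin and at 23 the lines were at most 100 kb apart, with a median of 100 kb and a largest distance of 700 kb. The states were made from scores smoothed over 15 windows of 50 kb, a span longer than each of these distances. The early side reached further in haploid cells at 11 borders and in diploid cells at 14. These counts and distances leave out the borders without such a place, among them those at 5300001 and 5600001 in region 1. For such a border the nearest crossing could belong to another border, and the distance then measures no shift between the lines. At the border at 11200001 the haploid profile crossed at 11200001. The nearest diploid crossing, at 14000001, was also that of the border at 13650001. In the late domain chr18:11200001-11600000 a bin was replicated on average in 44.7% of haploid and 64.8% of diploid cells.

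At most bins with a large difference the diploid cells were ahead. The SD of the difference over the bins of chromosome 18 was 14.7 points, the highest of the 19 autosomes, of which the others ranged from 9.33 on chromosome 5 to 13.6 on chromosome 17 with a median of 11.7. With cells matched on the progress of the chromosome itself the SD was 13.6 points, just under the 13.7 of chromosome 10. Differences of at least 30 points were found at 110 bins, 6.27% of the chromosome beside 3.93% of all autosomal bins. At 102 bins, 5.82% beside a background of 2.23%, the diploid cells were ahead, and at 8 bins, 0.456% beside 1.7%, the haploid cells were. The latter count was 14 without haploid plate row A and 18 without diploid plate row F. Matched on the progress of chromosome 18 these became 65 and 22 bins, and the share of bins past 30 points was 4.96%, with 3 other autosomes higher. Matched on the other autosomes, chromosome 3 alone had higher shares past 30 points and with diploid cells ahead, 6.33% for each.

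The 30 points are a size and not a test. Inside the regions named below the outermost bins had differences of 30.3 to 35.8 points in size, and the bins just outside lay at 22.1 to 29.5 points.

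**Figure D3:**
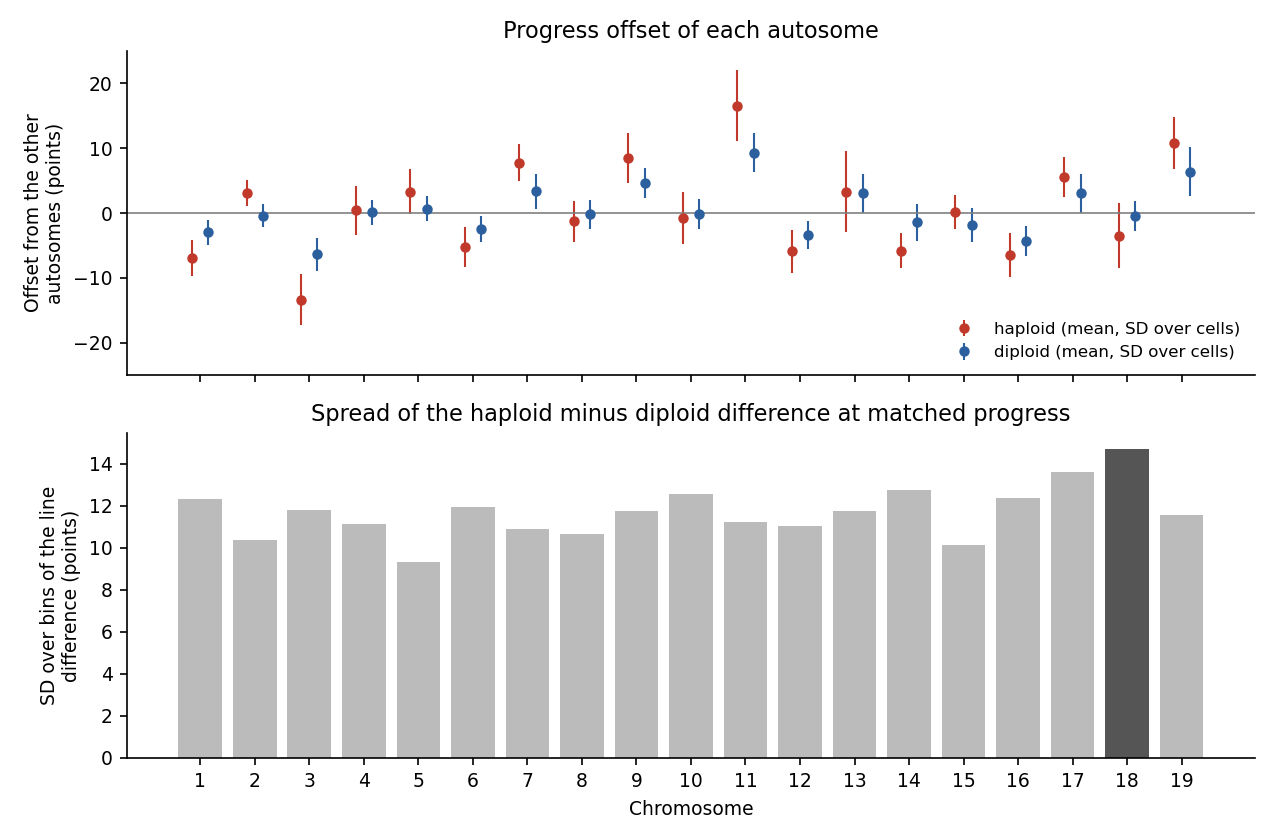
Top, offset of each autosome from the others in percentage points, as mean and SD over 75 haploid and 63 diploid cells. Bottom, SD over bins of the haploid minus diploid difference at matched progress; chromosome 18 (dark bar) stands at 14.7 points and the next, chromosome 17, at 13.6.

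5 regions had a run of at least 5 bins past 30 points, with a gap of 1 bin bridged, and are numbered in the order of their difference, those with diploid cells ahead first. Together they held 102 bins. A region was called replicated in a cell when more than 50% of its bins were. The SD over cells given for a region was taken within line and stratum, over every stratum with at least 2 cells of that line. It therefore also covers strata in which the lines were not compared, and can lie under the spread of the compared cells. Squared distances from the stratum means were averaged over cells without a correction for those means, which also lowers this SD. Intervals are exact (Clopper-Pearson) at 95% and cover counting error only. The regions were picked for their difference in the states of largely the same cells. Intervals of the lines that lie apart therefore follow in part from this choice and are no support for a difference.

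Region 1, chr18:3200001-5950000, spanned 2750 kb near the centromeric end of the chromosome, whose first bin with a state starts at 2950001. At matched progress a bin of the region was replicated on average in 37.2% of the haploid and 90.1% of the diploid cells, a difference of −52.9 points, while the SD over cells of 1 line and stratum was 15.4 points. In the middle of S-phase the haploid cells had replicated between 0% and 100% of its bins with a median of 25.5%, and the diploid cells between 21.8% and 100% with a median of 100%. The ranges overlapped, but most cells of the lines lay on opposite sides of 50%. The region was replicated in 5 of 25 haploid cells (20%, interval 6.83% to 40.7%) and 42 of 45 diploid cells (93.3%, interval 81.7% to 98.6%). The smoothed score, from which the states were made and which is therefore no independent measure, was −0.388 ± 0.2999 in these haploid and 0.305 ± 0.280 in these diploid cells (SD, n = 25 and 45).

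The haploid cells did replicate region 1, but later. No haploid cell below 40% progress had replicated it, 0 of 11 with an upper limit of 28.5%, and 36 of 39 above 60% had. Of the diploid cells 2 of 4 below 40% and all 14 above 60% had replicated it. The earliest haploid cell to have done so had 52.5% of the other autosomes replicated and the earliest diploid cell 38.3%. The latest cells without it stood at 64.8% in the haploid and 48.9% in the diploid line. In the schedules made from each line alone the region stood at 5.82 h and 3.11 h, a late place in haploid and an early one in diploid cells, 2.71 h apart.

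Region 1 covers 10 protein-coding genes. The difference was largest at chr18:4350001-4400000, with 22.3% of haploid and 97.8% of diploid cells replicated, −75.5 points, the largest in size on the chromosome. This bin holds the starts of Map3k8, a kinase at the head of a MAP kinase pathway, and of Mtpap, the poly(A) polymerase of mitochondria. Lyzl1, a lysozyme-like gene, differed by −70.6 points. At Jcad, which encodes a protein of endothelial cell junctions, 41.04% of haploid and 100% of diploid cells were replicated. Svil, the gene of the actin-binding supervillin, had 40.2% and 98.6%.

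The genes towards both ends of region 1 differed less. Crem, a transcription factor that responds to cyclic AMP, had 45.1% of haploid and 83.2% of diploid cells replicated, Cul2, the scaffold of a ubiquitin ligase, 43.6% and 83.3%, and Bambi, a decoy receptor of the TGF-beta family, 43.6% and 84.7%. At the other end Zeb1, a repressor of E-cadherin known from the epithelial to mesenchymal transition, had 26.9% and 77.2%. The profile of the haploid cells dipped before the middle and again towards the end of the region and stayed at or under 53.98% until near its distal end. At the last bin it stood at 60.8% beside 93.5% for the diploid cells, and the profiles came close only beyond the region.

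Region 2, chr18:62150001-63100000, lay within the longest early domain and was reached later in the haploid line. Over its 950 kb, a bin was replicated on average in 45.4% of haploid and 92.6% of diploid cells at matched progress, a difference of −47.2 points beside an SD over cells of 21.1. In the middle of S-phase haploid cells had replicated a median of 15.8% of its bins, with 9 cells at 0% and 4 at 100%, and diploid cells a median of 100%, with a lowest value of 36.8%. It counted as replicated in 7 of 25 haploid cells (28%, interval 12.1% to 49.4%) and 43 of 45 diploid cells (95.6%, interval 84.9% to 99.5%). Its score was −0.237 ± 0.451 in haploid and 0.502 ± 0.259 in diploid cells.

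The scheduled times of region 2 were 4.96 h and 2.16 h in the haploid and diploid schedules, 2.80 h apart. All 11 haploid cells below 40% lacked it, and 36 of 39 above 60% had replicated it. At Htr4, which encodes a serotonin receptor, 47.05% of haploid and 95.5% of diploid cells had replicated. The shares were 40.99% and 95.5% at Fbxo38, a subunit of a ubiquitin ligase, and at Spink10, of a family of serine protease inhibitors. Spink7 of the same family lay at the largest difference, −57.4 points. Apcdd1, an inhibitor of Wnt signalling, differed by −44.5 points and Napg, a gene of vesicle fusion, by −43.4. Piezo2, which encodes a mechanically gated channel, reaches into the region with the end of the gene away from its start. Its start lies outside and differed by only −4.62 points.

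Region 3, chr18:30100001-30850000, was a peak of the diploid line inside the longest late domain. At matched progress a bin of it was replicated on average in 21.9% of the haploid and 66.2% of the diploid cells, a difference of −44.3 points beside an SD over cells of 29.2. In the middle of S-phase the haploid median was 0% of its bins, with 17 of 25 cells at 0%, and the diploid median 80%, with 9 of 45 cells at 0%. The groups overlapped over nearly the whole range, and the region was replicated in 4 of 25 haploid cells (16%, interval 4.54% to 36.1%) and 32 of 45 diploid cells (71.1%, interval 55.7% to 83.6%). Its only protein-coding gene was Pik3c3, the lipid kinase of autophagy and endosomes, with 18.7% of haploid and 71.8% of diploid cells replicated. The region stood at 6.36 h in the haploid and 4.85 h in the diploid schedule. Below 40% progress 1 of 11 haploid and 0 of 4 diploid cells had replicated it, too few to order the lines there, and the earliest cell that had stood at 30.7% in the haploid and 42.2% in the diploid line. Matched on the progress of chromosome 18, its difference was −31.9 points.

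Region 4, chr18:9300001-9600000, held 6 bins that contain Ccny, the gene of cyclin Y. A bin of it was replicated on average in 27.2% of haploid cells and in 58.96% of diploid cells at matched progress, and the difference of −31.8 points was smaller than the SD over cells of 35.8. In the middle of S-phase 5 of 25 haploid and 25 of 45 diploid cells had more than 50% of its bins replicated. Matched on the progress of chromosome 18 the difference was −19.96 points, so this region does not reach 30 points once the level of the chromosome is taken out. Regions 1 and 2 still differed by −43.4 and −40.3 points under that matching.

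Region 5, chr18:79500001-79850000, was the only one with haploid cells ahead, and lies across a border from late to early. A bin of its 7 was replicated on average in 72.9% of haploid cells and in 39.9% of diploid cells at matched progress, a difference of 33.05 points beside an SD over cells of 26.5. It was replicated in 21 of 25 haploid cells (84%, interval 63.9% to 95.5%) and 14 of 45 diploid cells (31.1%, interval 18.2% to 46.6%) in the middle of S-phase. The haploid profile crossed 50% of cells at 79550001 and the diploid profile at 79750001, 200 kb further along, and its scheduled times were 4.64 h and 6.16 h. No protein-coding gene overlaps it. Matched on the progress of chromosome 18 the difference of region 5 was 38.6 points.

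**Figure D4:**
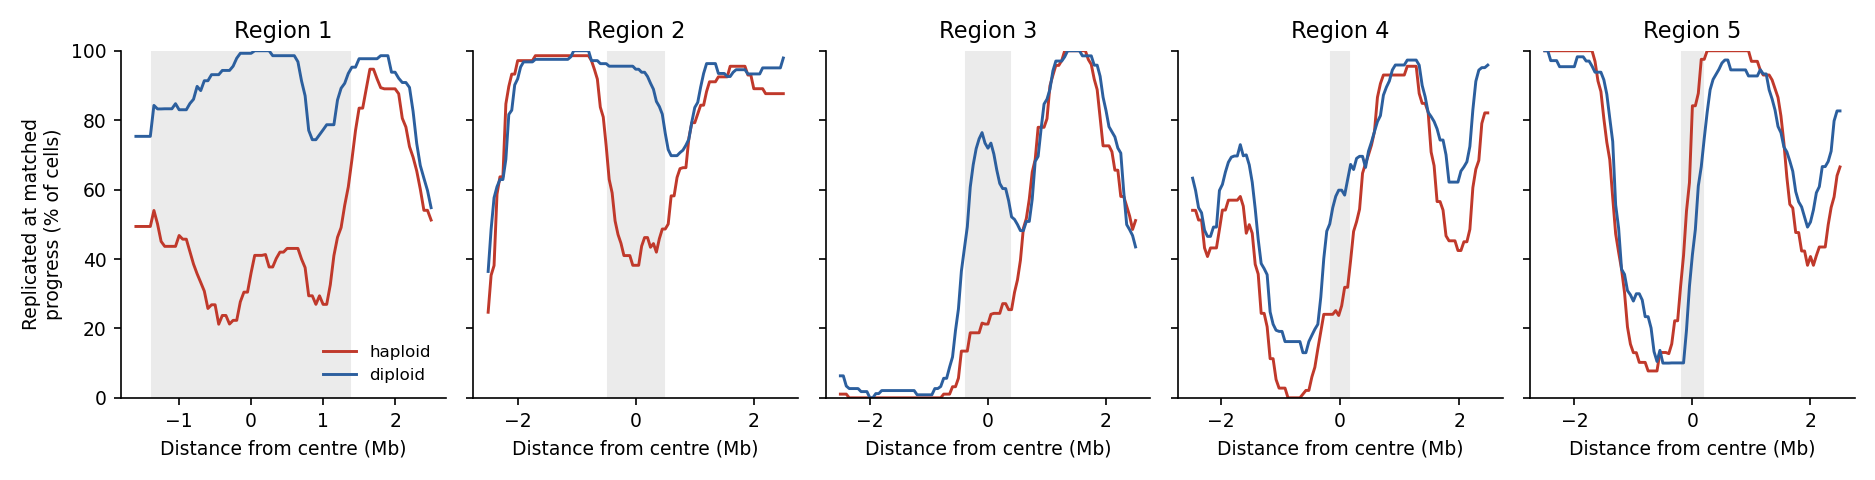
Percentage of haploid and diploid cells with each bin replicated at matched progress, against the distance from the centre of regions 1 to 5 in Mb; the grey band is the region. Haploid cells lie below diploid cells in regions 1 to 4 and above them in region 5, and the lines meet outside the bands of regions 2, 3 and 5.

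**Figure D5:**
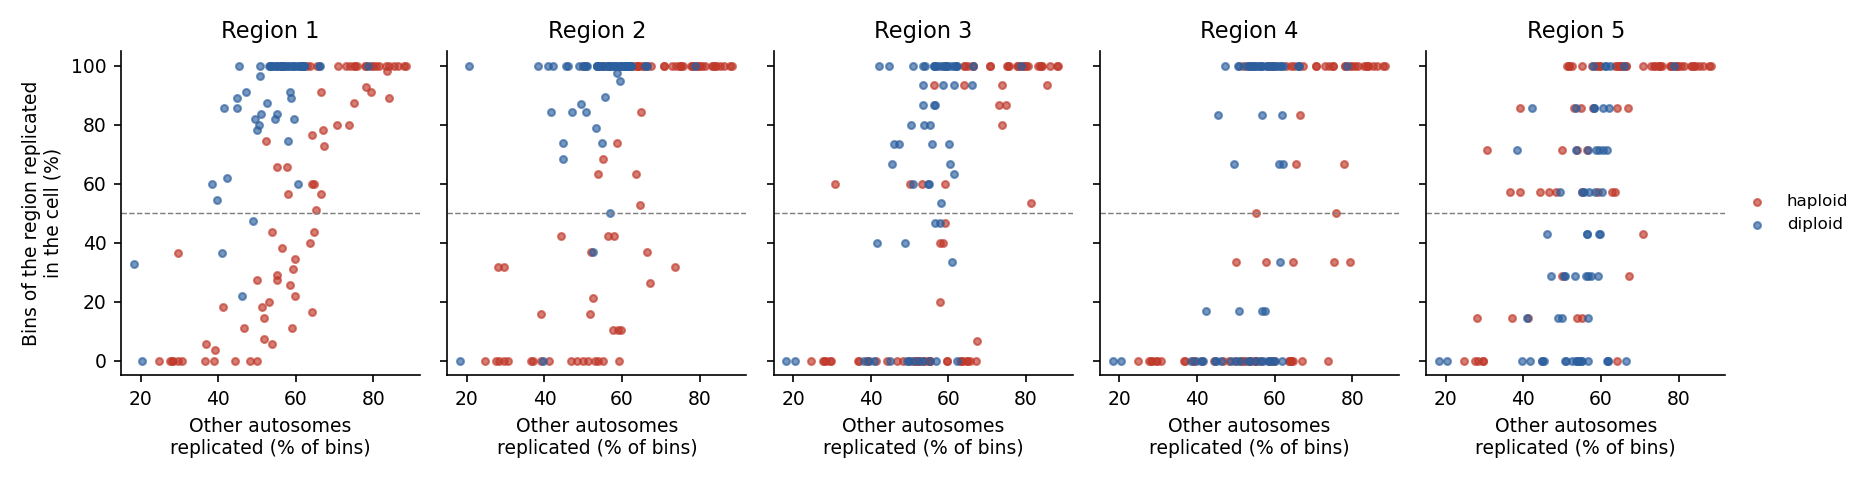
Percentage of the bins of each region replicated in a cell against the percentage of bins replicated on the other autosomes, 1 point per cell, with a dashed line at 50%. In region 1 the first haploid point above the line lies at 52.5% progress and the first diploid point at 38.3%.

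A further 11 bins past 30 points lay outside the regions, in 5 short runs. The longest of them, chr18:83800001-84000000, had 20.3% of haploid and 53.05% of diploid cells replicated. The last one, chr18:90200001-90350000 near the telomeric end, was the other place with haploid cells ahead, with 53.9% and 14.8%. Its bin chr18:90300001-90350000 differed by 48.2 points, the largest difference in that direction.

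Homologs of a diploid cell carry the same state in these data unless reads over sequence variants showed otherwise, so the comparison with each chromosome set is close by construction. With the 129 homolog alone, the chromosome set of the strain of the haploid line, a bin of region 1 was replicated on average in 89.6% of diploid cells at matched progress, and with the Castaneus homolog in 90.7%. For region 2 the shares were 94.7% and 90.6%, and for region 3 65.6% and 66.9%. Regions 4 and 5 had no bin with different homologs in the matched cells.

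Bins whose homologs differed made up 1.14% ± 2.93 of chromosome 18 (SD, n = 63), the median cell having none and diploid cell 71 the most, 19.4%. Only 19 cells had any such bin on the chromosome. The share on the other autosomes was 0.851% ± 1.54. The 129 homolog was ahead at 0.759% and Castaneus at 0.382% of bins, in 43 and 25 segments with a median length of 775 kb and a longest of 2900 kb. The study's limit for calling a homolog ahead was somewhat lower for 129 than for Castaneus, and its share in this difference was not tested. At most 5 cells shared an asynchronous bin. This happened at chr18:63050001-63100000 and chr18:63350001-63400000, where the 129 homolog was ahead in all 5 cells, and at chr18:12900001-13050000, where it was ahead in 2 cells and Castaneus in 3. The first of these is the last bin of region 2, in which 5 cells had any bin with 129 ahead and no cell had one with Castaneus ahead. Left without the 3 diploid cells with most asynchronous bins, the mean share on chromosome 18 was 0.7003%.

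Pairs of cells within 1 percentage point of progress give the line difference without an average profile. In 157 pairs of a haploid with a diploid cell, 21.6% of chromosome 18 bins had different states. In 94 haploid pairs it was 18.7%, the highest of the 19 autosomes, and in 157 diploid pairs 18.4%. Mixed pairs therefore differed at 3.01 points more bins than the mean of the pairs of 1 line. The other autosomes ranged from 1.15 points on chromosome 12 to 3.09 on chromosome 13, so chromosome 18 had the second largest excess. Pairs share cells and are not independent.

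The spread of replication around the schedule was measured as T_width, the time between 25% and 75% of bins replicated on a sigmoid fitted against the time from scheduled replication. On chromosome 18 it was 2.21 h in haploid cells, the widest of the 19 autosomes, of which the others ranged from 1.82 to 2.18 h. In diploid cells it was 1.87 h, with 14 autosomes wider. With the schedule of the own line in place of both, the values were 2.00 h and 1.99 h, and 6 other autosomes were wider in each line. The wide value of the haploid cells was thus seen against a schedule shared with the diploid line and not against their own.

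Genes of chromosome 18 were read in the bin that holds the gene start, by function. All 513 protein-coding genes with a start on the chromosome had a state there and 504 a scheduled time, 410 of them early and 94 late with a median of 2.48 h. The median line difference over the 513 genes was 0.873 points, and 22 genes, 4.29% beside 6.27% of the bins of the chromosome and 3.93% of all autosomal bins, lay past 30 points. The lists were written with results of these data known and carry no test.

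Of 17 genes of general cell function 15 were early, 88.2% beside 81.3% of all genes of the chromosome, with a median scheduled time of 1.36 h. In this list 2 genes lay past the 30 points, 11.8% beside 4.29% of all genes of the chromosome. Those were Cul2 and Pik3c3, of regions 1 and 3. Hdac3, a histone deacetylase, was scheduled at 0.263 h, and 100% of the haploid and 99.1% of the diploid cells had it replicated at matched progress. Matr3, a protein of the nuclear matrix, and Hspa9, a mitochondrial chaperone, were replicated in 100% of both. Lmnb1, the gene of lamin B1, stood at 98.6% and 100%. The exceptions on the late side were Pik3c3 at 5.45 h and Wac, an adaptor of histone ubiquitylation, at 5.44 h with 47.4% and 70.01%.

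Receptors of growth factors and hormones, listed with partners of their signalling, were all early. The 10 genes of the list had a median of 2.83 h, with 100% early beside 81.3% of all genes of the chromosome. Past 30 points lay 20% of them, beside 4.29% of all genes, and Htr4 of region 2 was among these. The neighbours Csf1r and Pdgfrb, receptors of macrophage and of platelet-derived growth factors, stood at 98.6% of haploid and 97.5% of diploid cells. Nr3c1, the glucocorticoid receptor, differed by −27.8 points with 50.8% and 78.6%, at the end of the domain of 140 genes. Mc4r, a melanocortin receptor of appetite control, differed the other way with 87.4% and 75.5%.

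Of the 8 genes of TGF-beta and Wnt signalling, 7 had a scheduled time and 6 of those were early, 85.7% beside 81.3% of all genes of the chromosome. Smad7, an inhibitor of TGF-beta signalling, was the earliest gene start of the chromosome at 0.0427 h, with 98.6% of haploid and 99.1% of diploid cells replicated. Apc, the tumour suppressor that restrains Wnt signalling, was replicated in 100% of both. Smad4, the shared partner of receptor Smads, had 72.4% and 82.9%. Dcc, a netrin receptor in a very long gene, was the late one at 8.42 h, with 0% and 4.48%. No gene of this list lay past 30 points.

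Developmental transcription factors fell on both sides. Of 15 genes 10 were early and 5 late, 66.7% early beside 81.3% of all genes of the chromosome. The 2 past 30 points, 13.3% beside 4.29% of all genes of the chromosome, were Zeb1 and Crem of region 1. Cdx1, of posterior patterning, and Egr1, an immediate early gene, were replicated in 97.3% to 100% of the cells of each line at matched progress. Gata6, which specifies primitive endoderm, was scheduled at 4.63 h and had 56.5% of haploid and 77.5% of diploid cells replicated. Tcf4, a helix-loop-helix factor of neural development, stood at 5.27 h with 41.1% and 61.8%. Setbp1 and Zfp608 were late at 7.44 h and 7.46 h and differed by −0.610 and −2.28 points.

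Adhesion genes included a cluster that crosses a border. The desmosomal cadherin genes run from the late domain chr18:15000001-20200000 into the next early domain. Dsc3, Dsc2 and Dsc1 were scheduled at 6.32, 6.04 and 5.85 h, and Dsg4, Dsg3 and Dsg2 further along at 3.93, 2.98 and 2.56 h. Haploid cells were ahead on the late side, with 64.3% against 36.8% at Dsc1. On the early side they were ahead by 17.9 points at Dsg4, 14.7 at Dsg1a and 6.68 at Dsg3, while at Dsg2 the lines stood at 95.5% and 95.6%. In the clustered protocadherins Pcdha1 and Pcdhga1 were early at 3.79 and 1.83 h, and Pcdhb1 between them stood at 5.01 h with 83.1% of haploid and 61.8% of diploid cells. Of 14 adhesion genes 8 were early and 5 late, 61.5% early beside 81.3% of all genes of the chromosome. The remaining adhesion gene had no scheduled time, and none of the 14 lay past 30 points.

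Neural genes were the latest list, with a median of 6.34 h, 4 early and 8 late among the 12 with a scheduled time. Their early share was 33.3%, beside 81.3% of all genes of the chromosome. Cbln2, a synapse organiser, was scheduled at 9.50 h, and 0% of the haploid and 0.734% of the diploid cells had it replicated at matched progress. Asxl3 stood at 8.31 h and Cdh2 at 8.03 h. Camk2a, a kinase of synaptic plasticity, was early at 0.824 h with 98.6% and 97.5%. Mbp, which encodes myelin basic protein, had 77.5% of haploid and 92.2% of diploid cells replicated, and no gene of the list lay past 30 points.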

How the data were processed

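Per the study's methods and the submitters' processing notes, the authors mapped reads to mm10 with Bowtie2, removed duplicates with SAMtools and counted reads in windows of 50 kb (bedtools is also named, and versions are not given in the sources used here). Counts were divided by G1 and G2 control cells, aneuploid chromosomes were brought to the control level, and each cell was centred, scaled and median smoothed over 15 windows. The deposited smoothed values are a score without a unit. The deposited binarized states, 0 or 1 per bin, were made by the authors from segments of that score, with a threshold for each cell. Homologs of a diploid cell were given different states only where parsed reads passed a limit.

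Columns were matched by well to 75 of 86 haploid and 63 of 96 diploid labelled S-phase cells, and 24 columns of diploid cells fit no label and were left aside. The 6 haploid G1 cells had no matched values. Bins needed a state in every cell, and scheduled times and scores also needed a score in 50% or more of the cells, line by line. T_width intervals of 0.1 h needed 100 values. Genes came from GENCODE M21 and GC content from the RefSeq genome of GRCm38. Named regions, domains (3 earliest, latest and longest) and genes followed a written rule. List genes are given in counts, and only some are named, with 1 gene not reported here. The chromosome, its rule and the gene lists were chosen with earlier results of these data known. As each line is 1 sample, no test was run. Alternatives covered strata, limits, matching, homologs, scores, schedules and plate rows left out. Python 3.11.15, numpy 2.4.6, pandas 2.3.3, scipy 1.17.1 and matplotlib 3.10.9 were used, and the code was tested on simulated data.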

Additional observations from a re-analysis of the deposited data

How the results depend on the processing

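Of 294 recomputed values 286 stayed within 1 SD over cells or, for counts, widths and spreads, within 1.5 times the value given above, and scores in place of states were judged by direction only. The other 8 were counts of bins past the limit. An SD over cells is a wide limit for a mean. Leaving out haploid plate row G or H also left the SD over bins, the bin counts and the region differences unchanged. The 286 is therefore no measure of precision. Within 1 SD, the diploid offset turned from −0.461 to 0.886 points against the schedule, region 4 went from −31.8 to −19.96 points matched on chromosome 18 progress, and the asynchronous share went from 1.14% to 0.7003% without 3 cells. Matched on the progress of chromosome 18, 22 bins were higher in haploid and 65 in diploid cells, against 8 and 102. A limit of 20 points gave 43 and 180 bins, and a limit of 40 points 2 and 67, since fewer bins pass a stricter limit. With 1 plate row left out at a time the count higher in haploid cells ranged from 6 to 18, moving to 14 without haploid row A and 18 without diploid row F, and the count higher in diploid cells from 96 to 116. The cause was not tested. Leaving out single rows moved the difference of region 1 from −55.6 to −49.3 points and the SD over bins from 14.4 to 15.7. With 10 bins as the shortest run there were 34 domains in place of 44. Alternatives chosen after seeing the data, without 1 cell of each of the 3 most alike diploid pairs or without the 2 haploid cells furthest from the median offset, left 99 and 102 bins higher in diploid cells. No paired analysis was possible because a cell number is only a name, shared by unrelated haploid and diploid cells. The read numbers behind each cell are unknown, so the precision of a single state is too.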
